A study of Homo sapiens with 3 samples.

Results

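The 9 genes HPRT1, ACTB, GAPDH, B2M, TBP, PPIA, PGK1, YWHAZ and GUSB are used as internal references in expression assays, and they were taken by name from the 23284 genes of the deposited values. HPRT1 was the reference of the real-time RT-PCR in the study. RNA-seq was carried out on 293T cells, a human embryonic kidney line that carries the SV40 large T antigen and is also written HEK293T. All cells transiently expressed dCas9-VP64, in which a nuclease-dead Cas9 is joined to the activator VP64 so that a guide RNA brings the activator to its target. The time between transfection and RNA extraction is not given in the sources used here. The mock cells received the parental guide vector, and the other cells received sgL1ASP #1 or sgL1ASP #3, which target the antisense promoter (ASP) in the L1 5′ UTR. There was 1 library per condition. The spread of a gene over the 3 libraries therefore holds the condition, the culture, the library and counting error together, and no test was possible.

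A reference gene is chosen because its mRNA is assumed to stay level while other genes change, so that it can correct for the amount of RNA or cDNA in a reaction. The genes in common use belong to unrelated pathways, which lowers the chance that a single regulatory event moves all of them. HPRT1 salvages purines, ACTB is cytoplasmic beta-actin, and GAPDH and PGK1 are consecutive enzymes of glycolysis. B2M is the light chain of MHC class I, TBP binds the TATA box, PPIA is cyclophilin A, YWHAZ is a 14-3-3 adaptor and GUSB is a lysosomal beta-glucuronidase.

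All 9 reference genes were expressed in each library, and their levels covered a 92.4-fold range. FPKM (read fragments scaled by transcript length and by library depth) corrects for transcript length, so that levels of different genes can be set beside each other. FPKM of PGK1 was more than 1.1-fold higher than in mock with both guides, that of GAPDH with sgL1ASP #1, and 0 of the 9 genes differed by 1.5-fold in any comparison. Of the 12830 genes whose mean FPKM was 1 or more, 35.6% passed 1.1-fold in either direction with sgL1ASP #1 and 35.7% with sgL1ASP #3. Between 3.85% and 4.08% of them passed 1.5-fold, so a count of 0 among 9 does not set the reference genes apart. ACTB, HPRT1 and YWHAZ had the smallest spread on the deposited scale, and TBP and GAPDH when the FPKM sums were made equal. Together the 9 genes made up 0.551% of the FPKM sum in mock, 0.559% with sgL1ASP #1 and 0.545% with sgL1ASP #3.

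The FPKM sums were between 619903 and 673483, and the depth estimated from the lowest values was between 8700000 and 10400000 reads. The deposited values were already level for the bulk of the genes, since the median ratio over 12347 genes gave factors between 0.999 and 1.002 (mock 0.9995, sgL1ASP #1 0.9994 and sgL1ASP #3 1.0017). Among markers of 293T cells, FPKM was between 807 and 904 for VIM, between 59.3 and 60.6 for KRT18 and between 13.4 and 13.8 for LIN28B. The leukocyte genes PTPRC and CD3E and the globin gene HBB were listed at 0 in each library. The fibroblast gene COL1A1 had FPKM between 1.99 and 2.55, and ALB, CDH5 and PECAM1 were between 0 and 0.467.

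GAPDH, which oxidizes glyceraldehyde 3-phosphate, was the highest of the 9 genes, with FPKM 2110 in mock, 2327 with sgL1ASP #1 and 2311 with sgL1ASP #3. It ranked 41st by mean FPKM among all genes. ACTB followed with FPKM 425.1, 419.3 and 422.8 in the same order of libraries. PGK1, which makes ATP from 1,3-bisphosphoglycerate, had FPKM 225.1, 276.5 and 269.9, lowest in mock. B2M had FPKM 199.4, 216.7 and 208.4, also lowest in mock. The middle of the range was held by PPIA, a peptidyl-prolyl isomerase, with FPKM 150.0, 142.4 and 146.7. HPRT1 had FPKM 112.7, 116.6 and 115.7, and YWHAZ had 104.3, 105.0 and 108.0. These closely spaced genes kept their order in each library. GUSB had FPKM 65.8, 68.3 and 64.3. TBP, part of the general transcription factor TFIID, was the lowest with FPKM 22.9, 25.07 and 25.05, and still lay above 69.1% of the 12830 genes with mean FPKM at least 1. Of the 8 neighbouring pairs in this order, 0 overlapped between libraries, and the closest as a ratio were PGK1, at or above 225.1, and B2M, at or below 216.7.

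The promoters of 7 of the 9 genes were found in the RefSeq promoter table (GRCh38.p14, 250 bases before the start to 50 after it), and those of ACTB and YWHAZ were not. GC-rich promoters without a TATA box are a known feature of many broadly expressed genes. The CpG observed-to-expected ratio of the 7 promoters was between 0.761 for GAPDH and 1.13 for PPIA, all above the median of 0.580 over 27305 promoters. GGGCGG, the GC box bound by Sp1, was present on either strand in 6 of the 7 promoters and in 44.6% of all promoters. CCAAT was present in 4 of 7 and in 35.7% of all, and TATAAA in 1 of 7, PPIA, and in 12.0% of all. ACGTG, letters shared by the E-box CACGTG and the hypoxia response element, was present in GAPDH, PGK1 and PPIA and in 21.6% of all promoters. These motifs were chosen after the expression values were seen, their matches can overlap, and a match is not shown to be a binding site. The stretches below are each read 5′ to 3′ on the strand of the gene. HPRT1 is shown as the RT-PCR reference, and PGK1 and GAPDH as the genes furthest above mock with sgL1ASP #1. PPIA is shown for its TATAAA, and B2M as a promoter without a GC box. PPIA, which was below mock with both guides, shares ACGTG and the GC box with PGK1 and GAPDH. Both PPIA and B2M share CCAAT with PGK1. Only the motif named with each stretch is marked, and a stretch can hold others. Capitals mark the motif.
HPRT1 (chrX:134460085-134460114, GC box): gcgtaggcgcgcGGGCGGggccgggggcgg
PGK1 (chrX:78104034-78104063, ACGTG): gcggcgtgccggACGTGacaaacggaagcc
PGK1 (chrX:78104128-78104157, CCAAT): gatgggctgtggCCAATagcggctgctcag
GAPDH (chr12:6535172-6535201, ACGTG): ctctgcggggtcACGTGtcgcagaggagcc
PPIA (chr7:44796638-44796667, TATAAA): ggccgaacgtggTATAAAaggggcgggagg
B2M (chr15:44711456-44711485, CCAAT on the opposite strand): ggccttgtcctgATTGGctgggcacgcgtt
Counted from the annotated start, the TATAAA of PPIA begins at -31, the ACGTG of GAPDH at -80 and the ATTGG of B2M at -49. The ACGTG of PGK1 shown begins at -202 and its CCAAT at -108.

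The 9 genes lie on chromosomes 6, 7, 8, 12, 15 and X of GRCh37, the sequence also named hg19. In the GENCODE annotation lifted to this build, HPRT1 covers chrX:133594195-133654543 on the plus strand with 9 exons in its canonical transcript. PGK1 covers chrX:77166236-77384792 on the plus strand, with 11 exons in a canonical transcript that begins at 77359745. ACTB (5566040 to 5603533, minus strand), PPIA (44836279 to 44864163, plus strand) and GUSB (65425671 to 65447202, minus strand) share chromosome 7. GAPDH lies on chromosome 12 from 6643678 to 6647540, B2M on chromosome 15 from 45003556 to 45011049 and TBP on chromosome 6 from 170863390 to 170881958, each on the plus strand. YWHAZ lies on the minus strand of chromosome 8 from 101928751 to 101965616. All 9 are annotated as protein coding, with canonical transcripts of 943 bases (B2M) to 5011 bases (YWHAZ).

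The spread of each gene was taken as its largest FPKM over its smallest, with no pseudocount. ACTB had the smallest ratio of the 9 genes, 1.014, followed by HPRT1 with 1.034 and YWHAZ with 1.035. PPIA had 1.053, GUSB 1.061, B2M 1.087, TBP 1.095 and GAPDH 1.103. PGK1 stood apart with 1.229. The coefficient of variation (SD over the mean, n = 3 libraries) ran from 0.693% for ACTB and 1.76% for HPRT1 to 10.9% for PGK1. This order turned with the scale. With equal FPKM sums TBP had the smallest ratio, 1.026, followed by GAPDH (1.034), HPRT1 and B2M (both 1.058), YWHAZ (1.060) and ACTB (1.092), while PGK1 remained the largest with 1.151. On the deposited scale the median ratio of the 9 genes was 1.061, and that of the 12830 genes with mean FPKM at least 1 was 1.113.

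Spread differed with level in these libraries, so the reference genes were also read against genes of their own level. The median ratio was 1.189 for the 5599 genes with mean FPKM from 1 to 10, 1.086 for 6370 genes from 10 to 100, 1.066 for 783 genes from 100 to 1000 and 1.096 for 78 genes at 1000 and above. Among the 783 genes, 3.58% had a smaller ratio than ACTB, 15.6% than HPRT1, 16.7% than YWHAZ and 33.6% than PPIA. B2M and PGK1 lay on the other side, with 64.4% and 93.1% of these genes less variable. GUSB and TBP belong to the level from 10 to 100, where 32.2% and 55.9% of genes had a smaller ratio. GAPDH, in the level at 1000 and above, had 47.4% below it. The reference genes lay on both sides of the median of their level.

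With sgL1ASP #1, FPKM was higher than in mock for 7 of the 9 genes, and for 50.3% of the 12830 genes. More than 1.1-fold differences were found in 2 of the 9 genes, PGK1 and GAPDH, both higher. Of all 12830 genes, 35.6% passed 1.1-fold in either direction in this comparison, and 22.1% of those with mean FPKM at least 10, as all 9 genes have. The ratio to mock was 1.229 for PGK1 and 1.103 for GAPDH, just inside the threshold, while TBP was just outside with 1.095. It was 1.087 for B2M, 1.038 for GUSB, 1.034 for HPRT1 and 1.007 for YWHAZ. ACTB had 0.986 of its mock FPKM and PPIA had 0.950. A threshold of 1.5-fold in either direction was passed by 0 of the 9 genes and by 3.85% of all genes. The study used 1.5-fold in a joint rule, upward only, for sgL1ASP #1 over the other guide and for that guide over mock. The counts given here take each comparison alone and are not counts under that joint rule.

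With sgL1ASP #3, FPKM was higher than in mock for 6 of the 9 genes and for 50.4% of all genes. PGK1, with a ratio of 1.199, was the 1 of 9 past 1.1-fold, where 35.7% of all genes were and 21.8% of those with mean FPKM at least 10. GAPDH (1.095) and TBP (1.094) were just under the threshold. B2M had a ratio of 1.046, YWHAZ 1.035, HPRT1 1.027, ACTB 0.995, PPIA 0.978 and GUSB 0.978. GUSB was the gene above mock with one guide and below it with the other. The 1.5-fold threshold was passed by 0 of the 9 genes and by 4.08% of all genes. Both comparisons share the mock library, so a value that is low in mock appears in each.

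Between the guides the reference genes differed least. The ratio of sgL1ASP #1 to sgL1ASP #3 lay between 0.971 for PPIA and 1.061 for GUSB, and it was 1.024 for PGK1, 1.007 for GAPDH and 1.007 for HPRT1. Of the 9 genes 0 passed 1.1-fold, where 35.6% of all genes and 21.3% of those with mean FPKM at least 10 did. The 1.5-fold threshold was passed by 0 of the 9 and by 4.04% of all genes. The median absolute log2 ratio of the 9 genes was 0.035 between the guides, 0.074 for sgL1ASP #1 against mock and 0.050 for sgL1ASP #3 against mock. Over all genes it was between 0.094 and 0.095 in the 3 comparisons. All genes include 5599 with mean FPKM from 1 to 10, a level without reference genes where spread was larger, so these medians are not matched for level.

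Counting error is the part of the error that single libraries allow to be estimated. From the depth and the length of the canonical transcript, GAPDH was covered by about 23800 reads in mock, PGK1 by about 10800, HPRT1 and GUSB by about 1400 each and TBP by about 400. The log2 ratio of PGK1 to mock was 0.30 with a counting standard error of 0.019 with sgL1ASP #1, and 0.26 with an error of 0.020 with sgL1ASP #3. For GAPDH it was 0.14 and 0.13, each with an error of about 0.013 (0.0129 and 0.0135). The B2M values of 0.12 and 0.064 had errors of 0.051 and 0.054. The nearly equal values of TBP, 0.13 with either guide, had errors of 0.10 and 0.11 and so carried less information than those of GAPDH. The HPRT1 values of 0.049 and 0.038 were smaller than their errors of 0.054 and 0.057, so a change of HPRT1 was not detectable at this depth. The errors cover counting only and depend on the estimated depth. They also depend on the GENCODE transcript lengths, which may differ from the gene models of the authors, above all for the long transcripts of PGK1 and YWHAZ, and variation between cultures was not measured.

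**Figure D1:**
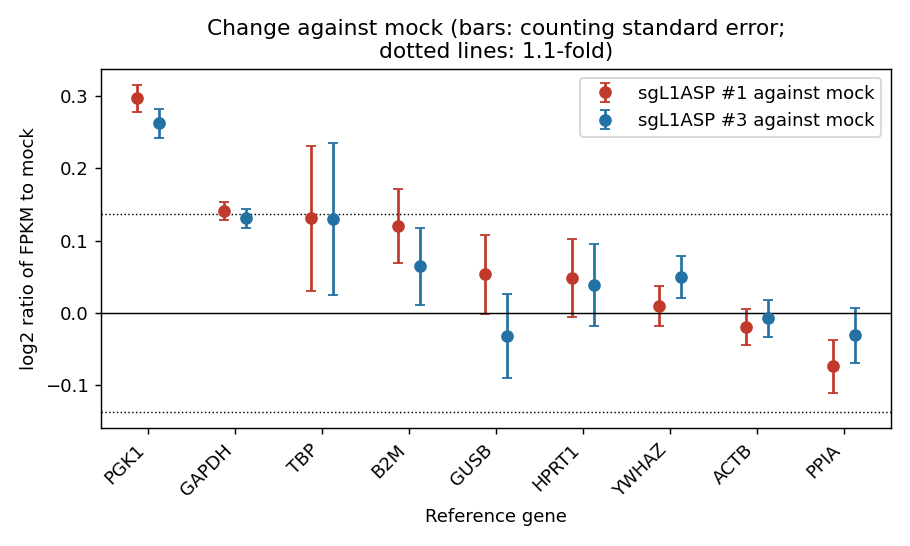
Log2 ratio of FPKM to mock for sgL1ASP #1 (red) and sgL1ASP #3 (blue) in the 9 reference genes, with bars for the counting standard error and dotted lines at 1.1-fold. PGK1 lies above the dotted line with both guides (0.30 and 0.26), GAPDH lies on it (0.14 and 0.13), and ACTB and PPIA lie below 0.

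The direction of some small differences depended on the scale. With the FPKM sums of the libraries made equal, the median log2 ratio of all genes moved to -0.093 with sgL1ASP #1 and -0.12 with sgL1ASP #3. PGK1 remained above mock, with log2 ratios of 0.20 and 0.14, and GAPDH had 0.048 and 0.011. HPRT1 turned to -0.045 and -0.082, and YWHAZ to -0.084 and -0.070. GUSB with sgL1ASP #1 and B2M with sgL1ASP #3 also turned from above to below mock, and the other genes kept their direction. On this scale 4 of the 9 genes were above mock with sgL1ASP #1 and 3 with sgL1ASP #3. Past 1.1-fold were PGK1 (higher) and PPIA (lower) with sgL1ASP #1, and PGK1 (higher), PPIA and GUSB (both lower) with sgL1ASP #3.

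Ratios within a library do not depend on the scale. The stability of each gene was therefore also taken as the mean SD, over the 3 libraries, of its log2 ratio to each of the other 8 genes, a measure in common use for reference genes. HPRT1 had the lowest value, 0.055, followed by B2M (0.061), YWHAZ (0.063), TBP (0.064), GAPDH (0.066) and ACTB (0.069). These values differ by less than the counting errors given above for HPRT1, B2M and TBP, so their order is not resolved. GUSB had 0.075, PPIA 0.090 and PGK1 the highest, 0.136. ACTB, which had the smallest spread in FPKM, ranked 6 when set against the other genes, most of which were above mock with the guides. The steadiest pair was GAPDH to TBP, with ratios of 92.2 in mock, 92.9 with sgL1ASP #1 and 92.3 with sgL1ASP #3 (SD 0.0057 on the log2 scale). This SD is the lowest of all pairs and lies far below the counting error of TBP (0.10 with sgL1ASP #1), so such steadiness cannot be resolved at this depth. HPRT1 to YWHAZ had the next lowest SD, 0.027. The least steady pair was PPIA to PGK1, with ratios of 0.666, 0.515 and 0.544 in the same order and an SD of 0.196.

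The study used HPRT1 to standardize the real-time RT-PCR of CLASP1, a microtubule-binding protein, MAPK12, a p38 kinase, and CHFR, a mitotic checkpoint ubiquitin ligase. The paper reports from independent experiments that the expression of these genes was affected in guide-treated cells. It presents them among genes upregulated when the antisense promoter is activated. The same ratios were formed here from the FPKM values, with each of the 9 genes as the reference. Without a reference, the FPKM ratio to mock was 1.03 for CLASP1, 1.20 for MAPK12 and 1.05 for CHFR with sgL1ASP #1. With sgL1ASP #3 it was 1.02, 1.12 and 1.04 in the same order. With 1 library per condition, these FPKM ratios cannot test the RT-PCR result. Ratios of a gene to different references share its FPKM value in each library, so they are not repeat measurements. The counting errors of CLASP1, MAPK12 and CHFR were not estimated. Relative to HPRT1, the log2 change of MAPK12 against mock was 0.21 with sgL1ASP #1 and 0.13 with sgL1ASP #3. With the other 8 references it lay between -0.035 (PGK1) and 0.34 (PPIA) with sgL1ASP #1, and was above 0 with 7 of them. With sgL1ASP #3 it lay between -0.096 (PGK1) and 0.20 (GUSB). CLASP1 relative to HPRT1 was at -0.0031 and -0.0026, and CHFR at 0.017 and 0.015. For both genes the sign depended on the reference. With sgL1ASP #1, CLASP1 lay between -0.25 (PGK1) and 0.12 (PPIA), above 0 with 3 of 8 references, and CHFR between -0.23 (PGK1) and 0.14 (PPIA), above 0 with 4 of 8. With the geometric mean of all 9 genes as the reference, the log2 change with sgL1ASP #1 was 0.18 for MAPK12, -0.033 for CLASP1 and -0.013 for CHFR. The geometric mean itself was 0.079 above mock with sgL1ASP #1 and 0.067 with sgL1ASP #3 on the log2 scale.

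Several reference genes have processed pseudogenes, intronless copies of their mRNA elsewhere in the genome, so reads of the sequenced length may fit more than 1 place. Every 75-base window of the canonical transcripts was searched for in GRCh37 outside the gene itself. HPRT1 and B2M had 0 windows with a copy at up to 2 mismatches. TBP had such a copy for 1.35% of windows and GUSB for 3.72%. GAPDH had one for 69.0%, YWHAZ for 50.5%, PPIA for 31.9%, ACTB for 31.4% and PGK1 for 16.5%. Exact copies were found for 24.9% of PPIA windows, 18.5% of YWHAZ windows, 5.29% of ACTB windows, 3.93% of PGK1 windows and 3.80% of GAPDH windows. A single window had up to 30 copies in PPIA and up to 2422 in PGK1, whose long canonical transcript contains sequence repeated across the genome. Copies of PPIA windows were spread over 73 places, of ACTB over 28 and of GAPDH over 19. How reads with several places were counted is not given in the sources used here. In this respect alone, the levels of GAPDH, YWHAZ, PPIA, ACTB and PGK1 are less certain than those of HPRT1, B2M, TBP and GUSB. Counting error is a separate limit and was larger for TBP (0.10 with sgL1ASP #1) than for GAPDH (0.013). Windows across an exon junction could not be matched to copies that keep introns, so the shares can be too low. The part of such reads in the differences between libraries was not tested.

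Entries named as pseudogenes of a reference gene were found in the deposited values for GUSB. GUSBP11 had FPKM 23.88, 24.02 and 23.76 in mock, sgL1ASP #1 and sgL1ASP #3, GUSBP1 had 6.31, 5.36 and 4.67, and GUSBP4 had 4.91, 6.35 and 3.46. GUSBP2, GUSBP3, GUSBP5, GUSBP9 and GUSBP10 were listed at 0 in each library.

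The neighbours of PGK1 and GAPDH in glycolysis were followed from a list of 14 genes, of which 12 had mean FPKM at least 1. With sgL1ASP #1, 5 of the 12 were more than 1.1-fold higher and 2 more than 1.1-fold lower than in mock, where 17.5% and 18.1% of all genes were. With sgL1ASP #3, 5 were higher and 1 was lower, against 17.8% and 17.9% of all genes. LDHA, which makes lactate, had FPKM 331 in mock, 398 with sgL1ASP #1 and 387 with sgL1ASP #3, close to the pattern of PGK1. ALDOA had FPKM 1172, 1352 and 1358, the highest of the list. ENO1 had FPKM 1072, 1199 and 1158. The isozymes PGAM2 (FPKM 17.6, 13.2 and 16.2) and GAPDHS (10.4, 8.63 and 9.45) were lowest with sgL1ASP #1, and PGAM2 had the largest spread among the listed genes with mean FPKM at least 10 (1.331). ALDOC, with a ratio of 1.030, had the smallest. The median log2 ratio of the 12 genes was 0.10 with sgL1ASP #1 and 0.091 with sgL1ASP #3, while that of all genes was 0.0010 and 0.0019. On the scale of equal FPKM sums every log2 ratio to mock, in the list as in all genes, is lower by the shift given above. That shift is close in size to the medians of the 12 genes, so fewer of them are then more than 1.1-fold higher than in mock.

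The relatives of ACTB included a gene with a higher level. ACTG1, cytoplasmic gamma-actin, had FPKM 1544 in mock, 1688 with sgL1ASP #1 and 1632 with sgL1ASP #3, above ACTB in each library. Within ACTG1, 27 of 1738 ACTB windows had a copy at up to 2 mismatches and 0 had an exact one. Among the 9 expressed genes of the family, 1 was more than 1.1-fold higher and 3 were lower with sgL1ASP #1, where 17.5% and 18.1% of all genes were. ACTA1, skeletal muscle actin, had FPKM 2.08, 0.976 and 1.43 and was the family member past 1.5-fold. ACTR2, an Arp2/3 subunit, had the smallest spread (1.008) and ACTL6A the largest (1.167) among those with mean FPKM at least 10.

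The other 14-3-3 genes are the relatives of YWHAZ. The 5 with mean FPKM at least 1 were within 1.1-fold in each comparison. By comparison, 35.6% or 35.7% of all genes passed 1.1-fold, and 21.3% to 22.1% of those with mean FPKM at least 10, as these 5 have. The highest was YWHAE with FPKM 382, 380 and 394 (ratio 1.035, the smallest), and YWHAG had the largest ratio, 1.065. HPRT1 has its relatives in purine metabolism. Of 19 genes of purine synthesis and salvage, 1 was more than 1.1-fold higher and 3 lower with sgL1ASP #1, where 17.5% and 18.1% of all genes were. With sgL1ASP #3 the counts were 1 and 2, where 17.8% and 17.9% of all genes were. IMPDH2, which commits IMP to guanine nucleotides, was the highest with FPKM 654, 683 and 658. PFAS had the smallest ratio, 1.007, and ADK the largest among genes with mean FPKM at least 10, 1.174. APRT, the adenine counterpart of HPRT1, had FPKM 389, 424 and 403.

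B2M pairs with the heavy chains of MHC class I. B2M was higher than in mock with both guides, while HLA-B was lower with sgL1ASP #1, with FPKM 96.4 in mock, 91.0 with sgL1ASP #1 and 96.2 with sgL1ASP #3. HLA-C had FPKM 226, 228 and 234. Of the 14 expressed genes of the class I pathway, 0 were more than 1.1-fold higher and 2 were lower with sgL1ASP #1, where 17.5% and 18.1% of all genes were, and the counts were the same with sgL1ASP #3. The chaperone CALR was the highest with FPKM 1275, 1207 and 1185, and CANX had the smallest ratio, 1.011.

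TBP, PPIA and GUSB were set beside the other genes of their complex, family or compartment, with the same shares of all genes (17.5% higher and 18.1% lower with sgL1ASP #1, 17.8% and 17.9% with sgL1ASP #3) as background. Among 14 expressed genes of the TBP family and TFIID, 3 were more than 1.1-fold higher and 3 lower with sgL1ASP #1, and 2 and 3 with sgL1ASP #3. TAF9 was the highest with FPKM 133, 124 and 129, TAF6 had the smallest ratio (1.035) and TAF13 the largest (1.237). Of 16 expressed cyclophilins other than PPIA, 1 was higher and 1 lower with sgL1ASP #1, and 2 and 3 with sgL1ASP #3. PPIB, the cyclophilin of the endoplasmic reticulum, had FPKM 593, 609 and 592. PPWD1 had the smallest ratio, 1.014, and PPIL3 the largest, 1.365. Of 20 lysosomal glycosidases and sulfatases, 3 were higher and 2 lower with sgL1ASP #1, and 4 and 3 with sgL1ASP #3. GAA, acid alpha-glucosidase, was the highest with FPKM 97.1, 89.0 and 95.9, MAN2B1 had the smallest ratio (1.022) and IDS the largest (1.211).

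The pattern of HPRT1 was shared by many genes. Likeness was measured as the Euclidean distance between the pairs of log2 ratios to mock, among 7137 genes with mean FPKM at least 10. The nearest were CCNI (FPKM 127.3, 131.8 and 130.7), WDR45, CCDC8, C19orf70 and CASC3, at distances between 0.00081 and 0.0030. Within a distance of 0.05 lay 860 genes, or 12.1%, and 1 of them was a reference gene, YWHAZ at 0.041. PGK1 was the furthest of the reference genes, at 0.33. With 3 libraries, closeness of this kind is a description only.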

How the data were processed

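RNA of 293T cells with dCas9-VP64 and mock, sgL1ASP #1 or sgL1ASP #3 was sequenced by the authors (TruSeq stranded mRNA libraries, 75-base single-end reads). Reads were aligned to hg19 by the authors (SAMtools 0.1.19, Bowtie2 2.2.3, TopHat 2.0.13), who deposited FPKM per gene from Cuffdiff (Cufflinks 2.2.1), run in strand-specific mode. The annotation and the scaling between libraries are not given in the sources used here. Of the value columns, 0 belonged to no sample.

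FPKM was used without rescaling, pseudocount or test, since each condition has 1 library. Shares of all genes were taken over mean FPKM at least 1. The depth was estimated from the spacing of the lowest FPKM of genes with a single annotated transcript longer than 1000 bases, of which 44 to 68 formed the peak (mock 44, sgL1ASP #1 68, sgL1ASP #3 56), with each length shortened by a 200-base fragment. Reads per gene follow from this depth, and their standard errors cover counting error only. Transcript windows of 75 bases were compared with GRCh37 (GENCODE 44 lifted) without gaps, with at most 2 mismatches, leaving out the gene and 5000 bases on either side. Copies closer than 10 kb counted as 1 place. Older gene names were matched through RefSeq names.

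Alternatives were rescaling to a sum of 1000000 or by the median ratio, a pseudocount of 1, other filters and other reference genes. The members and lists were chosen with earlier results of these data known. Besides the 9 genes and the 3 RT-PCR genes, the rule for named genes took from each list the highest gene, the smallest and largest ratio at mean FPKM of at least 10 and any gene past 1.5-fold with FPKM at least 1 in every library (0 genes), and the 5 genes nearest HPRT1 or most level. LDHA, ENO1, GAPDHS, APRT, ACTA1, HLA-B, HLA-C, RPS18, EIF4A2, CYC1 and C1orf43 were named after their values were seen, and 1 gene that the rule takes is not reported here. The counting rule was run on simulated data with little noise and planted changes clear of both thresholds. That run checks the code and not how the rule behaves on these libraries. Python 3.11.15, NumPy 2.4.6, pandas 2.3.3, numba 0.67.0 and matplotlib 3.10.9 were used.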

Additional observations from a re-analysis of the deposited data

How the results depend on the processing

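No paired analysis was possible because there was 1 library per condition, and leaving out a library would have removed its condition. Shifts over 1.1-fold in a ratio, or over 1.5 times in a count or percent, are given here. All 27 alternatives for the largest-to-smallest ratios of the 9 genes stayed within these bounds. They could not do otherwise, since the rescaling factors differ by less than 1.1-fold and a pseudocount of 1 is small beside these levels. The order of the genes still turned with equal FPKM sums, where the ratio of ACTB went from 1.014 to 1.092. The number past 1.1-fold with sgL1ASP #3 was 1 and became 3 with equal FPKM sums, while the share of all genes went from 35.7% to 51.9%. The geometric mean of the 9 genes against mock, at 0.079 and 0.067, turned to -0.015 and -0.053 with equal sums. This shift could not reach 1.1-fold either.

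Relative to PGK1 in place of HPRT1, the log2 change with sgL1ASP #1 and sgL1ASP #3 was -0.25 and -0.23 for CLASP1, -0.035 and -0.096 for MAPK12, and -0.23 and -0.21 for CHFR. The MAPK12 values thereby turned from above to below 0, since PGK1 itself was above mock. The other 7 references and the geometric mean gave shifts under 1.1-fold.

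The percent of all genes past 1.1-fold was 22.1, 21.8 and 21.3 at mean FPKM of at least 10 (sgL1ASP #1 to mock, sgL1ASP #3 to mock and between the guides). Past 1.5-fold it was 10.9, 11.2 and 11.1 with no filter beyond FPKM above 0, 1.52, 1.52 and 1.56 at mean FPKM of at least 10, and 1.89, 1.995 and 2.23 with a pseudocount of 1. At the estimated depth, the differences of HPRT1, ACTB and GUSB from mock were smaller than their counting errors.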

Other observations

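A panel of 29 other genes in use as references was also followed, and its median largest-to-smallest ratio was 1.067, close to the 1.061 of the 9 genes. With sgL1ASP #1, 2 of the 29 were more than 1.1-fold above mock, RPS18 (FPKM 3097 in mock, 3484 with sgL1ASP #1 and 2983 with sgL1ASP #3) and EIF4A2 (110.2, 122.0 and 120.0), where 17.5% of all genes were higher by this much. With sgL1ASP #3 these were RPLP1 (FPKM 3115, 3336 and 3690), a ribosomal protein with the largest ratio of the panel, 1.184, and CYC1 (200.4, 216.7 and 222.6), where 17.8% of all genes were higher by this much. MRPL19 had the smallest ratio, 1.019, and RPL27 was the highest with FPKM 4602, 5009 and 4668. In a panel of 11 genes proposed for low variance across human tissues the median ratio was 1.070. C1orf43 (FPKM 188.3, 212.0 and 193.9) and CHMP2A (66.15, 72.97 and 74.98) were more than 1.1-fold above mock with sgL1ASP #1, CHMP2A also with sgL1ASP #3, against the same 17.5% and 17.8% of all genes. PSMB4 was the highest of this panel with FPKM 409, 423 and 426, and VCP had the smallest ratio, 1.037.

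The 5 genes with the smallest ratio at mean FPKM of at least 10 were JAK1 (1.0008), ACTN1 (1.0012), LOC100506963 (1.0015), HYOU1 (1.0016) and HK1 (1.0019). They were picked from 7137 genes for this value in 3 libraries, so the value says nothing about other cultures. HK1, hexokinase 1, had FPKM 47.6, 47.5 and 47.5.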
